A study of Mus musculus with 10 samples.

Results

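Monocyte-derived macrophages (MDMs) and gal-3+ macrophages, both sorted from the dystrophic hindlimb muscle of mdx mice, were set against each other here, library by library and across all genes. The comparison held 7 of the 10 RNA-seq libraries of the series, with 3 MDM libraries (mdx1, mdx4 and mdx5) against 4 gal-3+ libraries (mdx1, mdx3, mdx4 and mdx5). The other 3 libraries held skeletal muscle-resident macrophages (SkMRMs) from healthy muscle and served as a level to read the dystrophic values against. They did not enter the main fit, and an alternative fit held all 10 libraries. Libraries were grouped by their population label, in a choice made with earlier results of these data known. Both dystrophic populations came from 4-week-old C57BL/10ScSn-Dmdmdx/J mice, which carry the mdx mutation and lack dystrophin, and the SkMRMs from C57BL/10 mice with intact dystrophin. In its single-cell sort the study took muscle macrophages as live F4/80+, CD11b+ and Siglec-F- cells, a gate that the paper does not restate for the bulk libraries. MDMs were taken as gal-3lo Folr2- cells marked by CD52, and gal-3+ macrophages as gal-3hi Folr2lo cells. No MDM library from healthy muscle and no gal-3+ library from mice other than mdx was used, so every difference below was measured within diseased muscle. The labels do not say that the libraries came from separate mice, and p-values measure only the spread between these samples.

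As background, damaged muscle recruits Ly6C-high monocytes from blood through the chemokine receptor CCR2, and these cells differentiate into macrophages that clear necrotic fibers. Gal-3 is a secreted beta-galactoside-binding lectin encoded by Lgals3. Macrophages that have taken up much debris and lipid are known to raise lysosomal enzymes, the lipid carrier apolipoprotein E and the lipid-sensing receptor TREM2. Resident macrophages are known for scavenger receptors such as CD163 and LYVE1 and for C1q, the starter of the classical complement cascade.

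Values are the authors' DESeq2-normalized counts per gene, given below for MDM mdx1, mdx4 and mdx5 and then for gal-3+ mdx1, mdx3, mdx4 and mdx5. Library depth, recovered from the values, was 22.4 to 29.2 M reads in MDMs, 23.6 to 40.3 M in gal-3+ macrophages and 24.3 to 75.9 M in SkMRMs. A log2 fold change is the difference of mean log2(normalized count + 1), MDM minus gal-3+. A gene was called where it differed at least 2-fold with a limma p, adjusted by Benjamini-Hochberg over all 17001 genes, under 0.01. MDMs had 455 genes called higher, which is 2.68% of those tested, and 1139 called lower, which is 6.7%. Counts of called genes in the lists below are to be read beside these shares. None of the 1594 called genes overlapped between the 3 MDM and the 4 gal-3+ libraries, and 42.4% of all genes, called or not, had no overlap. At least 4-fold differences were held by 142 higher and 370 lower genes, and at least 16-fold differences by 21 higher and 40 lower genes. The median log2 fold change over all genes was 0.03. The first principal component, with 41.5% of the variance, placed the MDM libraries between 68.1 and 83.7 and the gal-3+ libraries between -63.6 and -52.8. The second, with 15%, set gal-3+ mdx3 apart at -91.9, against -16.5 to 37.7 for the other 6. In sorted bulk RNA, fewer cells of a kind and less RNA per cell cannot be told apart.

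**Figure D1:**
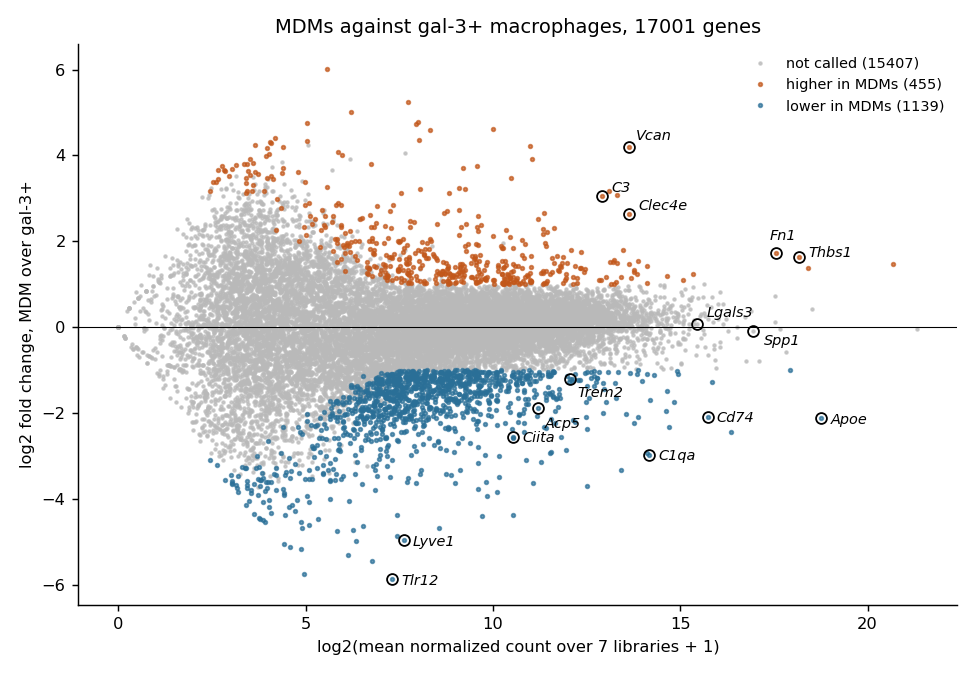
Log2 fold change, MDM over gal-3+ macrophages, against the log2 mean normalized count over the 7 libraries, 1 point per gene for 17001 genes. Orange points are the 455 genes called higher in MDMs, blue points the 1139 called lower and grey points the rest, with 15 genes of the text circled and named, and the abundant Lgals3 and Spp1 lie near 0.

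The sort itself can be read in part from the RNA. Lgals3, the gene of the antigen that separated the gates, had 40211, 51278 and 47228 normalized counts in MDMs, against 44141, 40684, 45826 and 44141 in gal-3+ macrophages. The groups overlapped and the difference did not pass the test (log2 fold change 0.08, SE 0.09, limma adjusted p = 0.549), while both stood above the SkMRM mean of 4172 ± 343 (SD, n = 3). At the RNA level, then, the mean Lgals3 level of the gal-3lo gate was not below that of the gal-3hi gate. Folr2, the folate receptor used to exclude resident cells, had 80.6, 152 and 139 in MDMs, against 2278, 2421, 2759 and 2576 in gal-3+ macrophages. Cd52, whose product marked the MDM gate, had 3523, 4249.7 and 4091 in MDMs, against 1845, 1767, 1876 and 2044 in gal-3+ macrophages. Both thus followed the gate, with log2 fold changes of -4.38 and 1.07. Adgre1, which encodes F4/80, was lower in MDMs at -1.12, with 12869, 11264 and 11945 against 24372, 26824, 27278 and 26121 in gal-3+ macrophages. Itgam, which encodes CD11b, had a log2 fold change of 0.66 and was not called. Siglecf stayed at or under 67.3 normalized counts in all 7 libraries. The products of Lgals3, Folr2 and Cd52 were used to separate the populations, so the values of these genes are not independent of the sort. F4/80, CD11b and Siglec-F belonged to the single-cell gate for all muscle macrophages, which did not separate MDMs from gal-3+ macrophages.

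Of the other cell types that a gate on muscle digests can carry, markers of contractile and vascular cells were lower in MDMs. Smooth muscle and pericyte markers summed to 3889.6, 3796 and 3427 normalized counts in MDMs, against 12909, 14921, 11549 and 13645 in gal-3+ macrophages, and 10 of 12 were called lower. Muscle fiber and satellite cell markers summed to 7335, 7225 and 6937 in MDMs, against 17387, 17890.0, 17113 and 21097 in gal-3+ macrophages, with 21 of 32 lower. Neither pair of sums overlapped. Endothelial markers summed to 33864 ± 769 in MDMs and 50445 ± 4652 in gal-3+ macrophages (SD, n = 3 and 4), with 8 of 16 lower. Tenocyte and Schwann cell markers summed to 5705 ± 484 in MDMs and 9030.3 ± 915 in gal-3+ macrophages, with 7 of 15 lower. Fibroblast and fibro/adipogenic progenitor markers, by contrast, summed to 96996, 108907 and 107739 in MDMs, against 104064, 96599.9, 78078 and 110831 in gal-3+ macrophages, and overlapped. Pan-macrophage and leukocyte genes summed to 403417, 463826 and 405039 in MDMs, against 390430.0, 459522, 481952 and 454025 in gal-3+ macrophages, and overlapped too. Cnn1, Mb, Myh7, Mkx and Twist2 of these lists were at 0 in at least 1 library, and the other members were detected in all 7. Myh3, an embryonic myosin, had 159.7, 184 and 77.5 in MDMs, against 747, 505, 774 and 709.8 in gal-3+ macrophages, and Rgs5 of pericytes had 1042, 785 and 643 in MDMs, against 4109.6, 4808, 3589 and 4023 in gal-3+ macrophages. These levels moved in the same direction as the genes lower in MDMs described below, and their part in those results was not tested.

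**Figure D2:**
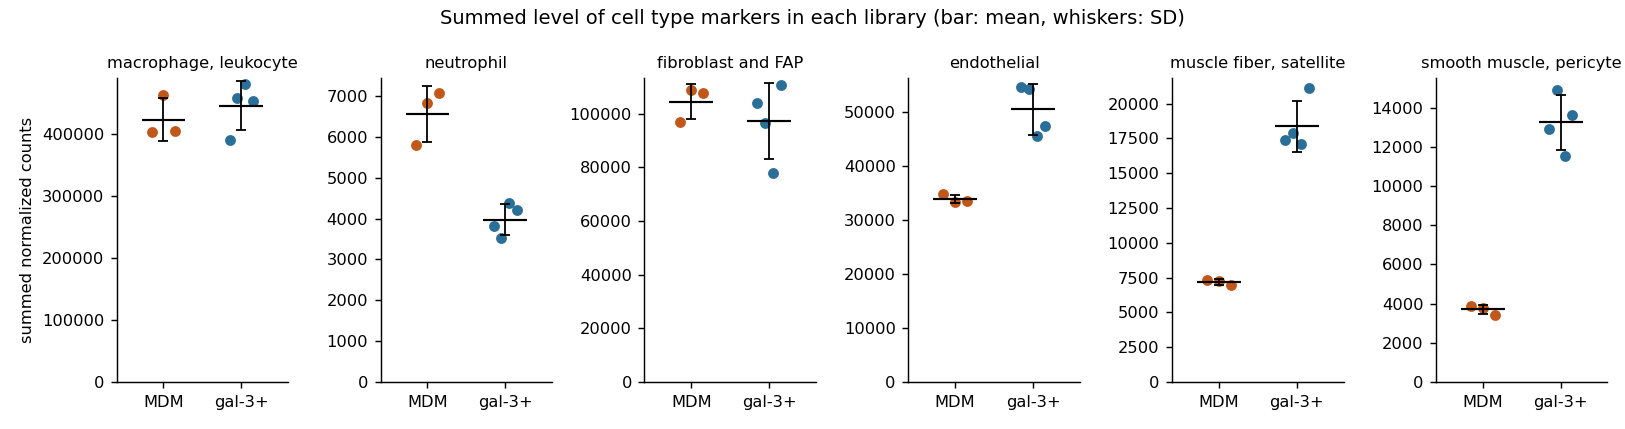
Summed normalized counts of the markers of 6 cell classes in each library, MDMs in orange and gal-3+ macrophages in blue, with the mean as a bar and the SD as whiskers. Muscle and smooth muscle sums are lower in all 3 MDM libraries, sums of the measured neutrophil markers are higher, and macrophage and fibroblast sums overlap.

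The measured neutrophil markers moved the other way. Of the 19 markers in the list, 12 were measured. Retnlg, Ly6g, Stfa1, Stfa2, Stfa2l1, BC100530 and Wfdc21 were not among the genes with values. Every gene with values held at least 10 normalized counts in at least 3 of the 10 libraries. Why these markers were absent was not tested, and the sums leave them out. The 12 measured ones summed to 5793, 6839.6 and 7069.6 in MDMs, against 3808, 3525, 4378 and 4202 in gal-3+ macrophages, without overlap. Of them, 5 were called higher (Il1f9, Lcn2, S100a8, Mmp8 and Hdc). All 12 had a log2 fold change above 0, with a median of 1.54. The granule gene Camp had 0, 0 and 19.96 in MDMs, against 0, 0, 16.4 and 0 in gal-3+ macrophages. Another granule gene, Ltf, had 18.97, 8.93 and 12.9 against 23.3, 21.3, 8.21 and 5.85, so these 2 members were low in both groups. The part of neutrophils in the genes higher in MDMs was not tested. T and NK cell, B and plasma cell, erythroid and platelet, and eosinophil, mast and basophil markers each had at most 1 member called. For T and NK cells it was Cd4, with 300.4, 171 and 217 in MDMs, against 1446, 1955, 1895 and 1999 in gal-3+ macrophages, a coreceptor that macrophages can also express. Dendritic cell markers summed to 9267, 10055 and 9364 in MDMs, against 7568, 7489, 6909 and 7264 in gal-3+ macrophages, higher without overlap. Most of that sum was Wdfy4, needed for cross-presentation, which had 7708, 8767 and 8070.0 in MDMs, against 5577, 5269, 5156 and 4998 in gal-3+ macrophages and was not called, at 0.64. Of the 14 measured, 1 was called higher (Dpp4, 1.32) and 1 lower (Fscn1, -1.45). The defining markers Flt3, Zbtb46 and Xcr1 were low and not called. Flt3 had 111, 56.1 and 50.5 in MDMs, against 59.1, 77.4, 26.7 and 53.6 in gal-3+ macrophages, Zbtb46 had 86.96, 61.2 and 102 in MDMs, against 121, 148, 158 and 182 in gal-3+ macrophages, and Xcr1 had 42.7, 8.93 and 23.5 in MDMs, against 7.77, 4.001, 1.03 and 14.6 in gal-3+ macrophages.

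The 5 marker genes separated the populations in every library. Vcan, at chr13:89655312-89742509 (GRCm38, GENCODE M21 coordinates here and below), encodes the matrix proteoglycan versican and is abundant in classical monocytes. It had 24526, 29305 and 28423 normalized counts in MDMs, against 1719.7, 1440.4, 1105 and 1806 in gal-3+ macrophages (log2 fold change 4.2, SE 0.15, limma adjusted p = 2.22e-08). Clec4e, at chr6:123281789-123289870, encodes MINCLE, a C-type lectin that senses mycobacterial glycolipids and dying cells, and had 21388, 23258 and 28569.6 in MDMs, against 4032, 3733, 3249.6 and 4590.3 in gal-3+ macrophages (log2 fold change 2.65, SE 0.12, limma adjusted p = 1.18e-07). Both genes were higher in each MDM library than in any gal-3+ library, by 18.1-fold and 6.26-fold in the means. SkMRMs averaged 864 ± 91.7 for Vcan and 302 ± 24.2 for Clec4e (SD, n = 3), so the gal-3+ level lay between those of the other populations in both cases.

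The other 3 markers ran the opposite way. Trem2, at chr17:48346401-48354147, had 2348, 2572 and 2354 in MDMs, against 5183, 4992, 6367 and 6085 in gal-3+ macrophages (log2 fold change -1.22, SE 0.09, limma adjusted p = 4.12e-06). Cd74, the invariant chain that escorts MHC class II molecules to endosomes, had 22085, 15375 and 19759 in MDMs, against 73688, 85370.3, 74337 and 89396 in gal-3+ macrophages (log2 fold change -2.09, SE 0.12, limma adjusted p = 6.07e-07). Acp5, at chr9:22126727-22135711, encodes the tartrate-resistant acid phosphatase of osteoclasts and of lysosome-rich macrophages. It had 1012, 921 and 832 in MDMs, against 3025, 3346, 3603 and 3676 in gal-3+ macrophages (log2 fold change -1.89, SE 0.10, limma adjusted p = 2.59e-07). All 3 genes were lower in each MDM library than in any gal-3+ library, by 2.33-fold for Trem2, 4.23-fold for Cd74 and 3.702-fold for Acp5. The MDM mean of Cd74, 19073 ± 3407, was near the SkMRM mean of 23065 ± 4397, whereas for Trem2 and Acp5 the MDM means of 2425 ± 128 and 922 ± 89.7 exceeded SkMRM means of 644 ± 99.1 and 140.5 ± 27.7 (SD, n = 3 each).

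**Figure D3:**
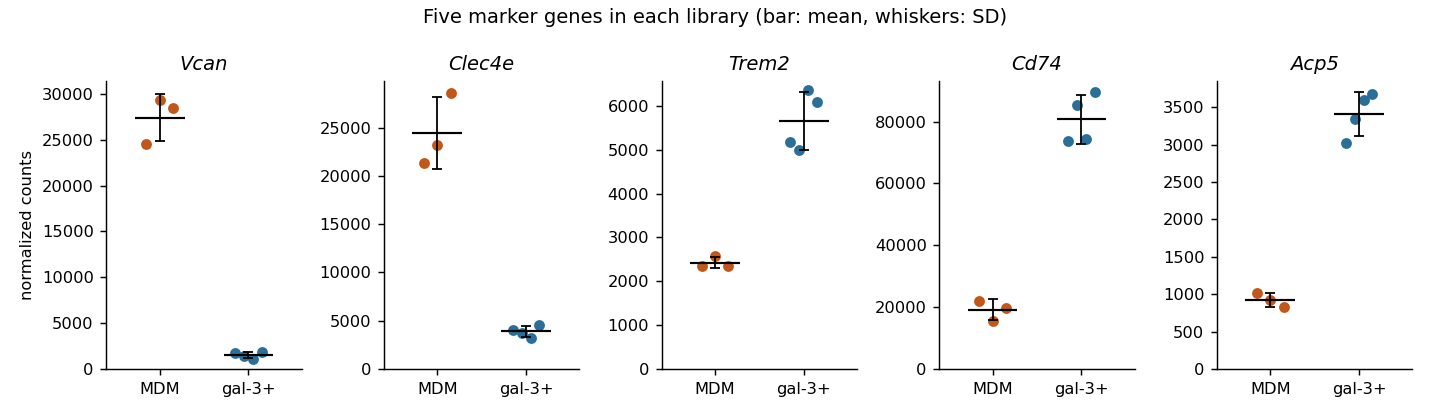
Normalized counts of the 5 marker genes in each library, MDMs in orange on the left and gal-3+ macrophages in blue on the right of each panel, with the mean as a bar and the SD as whiskers. Vcan and Clec4e are higher in all 3 MDM libraries, Trem2, Cd74 and Acp5 are higher in all 4 gal-3+ libraries, and no panel overlaps.

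Among genes with a gene symbol other than a Gm or Rik number and a mean of at least 100 normalized counts, the largest increase in MDMs was that of Serpinb10, a serine protease inhibitor, with 496, 625 and 519 in MDMs, against 15.5, 20.01, 22.6 and 20.5 in gal-3+ macrophages (log2 fold change 4.73, SE 0.30, limma adjusted p = 1.09e-06). Serpinb10, at chr1:107529003-107549271, overlaps Serpinb2, at chr1:107511423-107535478, on the same strand. Serpinb2 was also called higher, and the handling of reads in their overlap is not given in the sources used here. Mcemp1, a membrane protein of myeloid cells, had 542, 612 and 538 in MDMs, against 23.3, 52.01, 10.3 and 38.02 in gal-3+ macrophages. Tarm1, an activating receptor of myeloid cells, had 754, 1165 and 1463 in MDMs, against 108, 153, 75.9 and 133 in gal-3+ macrophages. All 3 were low in gal-3+ macrophages, at or under 153 normalized counts, and SkMRMs averaged 22.2 ± 26.1 for Serpinb10, 3.45 ± 1.48 for Mcemp1 and 1.86 ± 1.67 for Tarm1 (SD, n = 3 each). The secreted antiprotease Slpi followed with 1131, 1902 and 1827 in MDMs, against 97.96, 111, 139 and 118 in gal-3+ macrophages (log2 fold change 3.76, SE 0.20, limma adjusted p = 4.04e-07).

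At the lower end stood Tlr12, which in mice senses profilin of protozoan parasites, with 3.16, 1.276 and 9.39 normalized counts in MDMs, against 226, 231, 333 and 306 in gal-3+ macrophages (log2 fold change -5.88, SE 0.52, limma adjusted p = 1.12e-05). Its SkMRM mean was only 10.4 ± 9.74 (SD, n = 3), so of the 3 populations Tlr12 was high in gal-3+ macrophages. Lag3, an inhibitory receptor that binds MHC class II, had 23.7, 1.276 and 15.3 in MDMs, against 211, 287, 269 and 392 in gal-3+ macrophages (log2 fold change -4.87, SE 0.69, limma adjusted p = 0.000263). Gpr34, a lysophosphatidylserine receptor, had 104, 109.7 and 24.7 in MDMs, against 1391, 1315, 1585 and 1329.9 in gal-3+ macrophages. Adcy3, an adenylyl cyclase, had 133, 116 and 124 in MDMs, against 1327, 2065, 2131 and 1757 in gal-3+ macrophages, and Scamp5, a secretory vesicle membrane protein, had 155, 103 and 49.3 against 1210.5, 1420.4, 1319 and 1174. For these last 3 genes the gal-3+ levels resembled the SkMRM means of 1540.3 ± 265, 1381 ± 246 and 1566 ± 58.003. Stab2, a hyaluronan scavenger receptor known from sinusoidal endothelium, had 1.58, 1.276 and 11.7 in MDMs, against 180.4, 236, 204 and 129.7 in gal-3+ macrophages.

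Genes that mark blood monocytes were called higher in MDMs in 18 of 29 cases, with a median log2 fold change of 1.40 beside 0.03 for all genes. Plac8, a small cysteine-rich protein of immature myeloid cells, had 3591, 4585 and 5180.4 in MDMs, against 289, 149, 227 and 309 in gal-3+ macrophages. Ifitm6, a myeloid interferon-induced transmembrane protein, had 659, 663 and 763 in MDMs, against 55.98, 38.7, 10.3 and 26.3 in gal-3+ macrophages. Ly6c2, which encodes the monocyte antigen Ly6C, had 2454, 2947 and 3387 in MDMs, against 429.9, 123, 277 and 311 in gal-3+ macrophages. The 3 genes did not overlap, with log2 fold changes of 4.22 ± 0.22, 4.59 ± 0.47 and 3.48 ± 0.33 (SE). The adhesion receptor Cd44 sat at the fold threshold without being called, with 64709, 74382 and 73829.8 in MDMs, against 32968, 39766, 33263 and 36421 in gal-3+ macrophages (log2 fold change 1.0, SE 0.09, limma adjusted p = 1.25e-05). It was called without gal-3+ mdx3 (1.05), without gal-3+ mdx5 (1.01) and without MDM mdx1 (1.06). Lyz2, the lysozyme of all these phagocytes, overlapped at -0.05. The 1 member called lower was Fcna, a ficolin of macrophages, with 11.1, 3.83 and 39.9 in MDMs, against 186, 292, 351 and 318 in gal-3+ macrophages and a SkMRM mean of 10700.3 ± 781. Fcna is also a member of the resident macrophage list and is counted among its lower genes below. Ly6c2, Ifitm6 and several genes named below belong to families of similar sequence, for which the handling of shared reads is not given in the sources used here.

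Resident macrophage genes mirrored this. MDMs had 21 of 33 lower and 1 higher, with a median of -1.73, or -1.65 with the 2 members at 0 in every MDM library set at their bound. Because the MDM gate excluded Folr2+ cells, genes that mark the same cells as Folr2 are not independent of the sort. Lyve1, a hyaluronan receptor, had 11.1, 5.103 and 14.1 in MDMs, against 253, 276, 483 and 323 in gal-3+ macrophages (log2 fold change -4.97, SE 0.41, limma adjusted p = 6.14e-06). Ccl8, a chemokine, had 17.4, 25.5 and 29.4 in MDMs, against 558, 767, 630.0 and 595 in gal-3+ macrophages (log2 fold change -4.69, SE 0.25, limma adjusted p = 3.33e-07). Cd163, the hemoglobin-haptoglobin scavenger receptor, had 123, 86.8 and 84.5 in MDMs, against 1043, 1792, 1670.5 and 1632 in gal-3+ macrophages (log2 fold change -3.94, SE 0.21, limma adjusted p = 3.06e-07). In all 3 genes the gal-3+ level was itself far under the SkMRM means of 32405 ± 2240.2, 3982 ± 402 and 43984 ± 6463 (SD, n = 3 each). The complement receptor Vsig4 had 0 reads in each MDM library, against 46.6, 54.7, 57.5 and 52.6 normalized counts in gal-3+ macrophages, which is at least 11.1-fold lower at a floor of 3 reads in a library. The exception was Ccl24, the eosinophil attractant eotaxin-2, with 1051, 1719 and 1505 in MDMs, against 494, 492, 462 and 609 in gal-3+ macrophages and a SkMRM mean of 4056 ± 744. Among abundant members, F13a1, the coagulation transglutaminase, was not called, with a log2 fold change of 0.97. It was called higher without gal-3+ mdx4 (1.02), without MDM mdx1 (1.04) and without MDM mdx5 (1.01).

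**Figure D4:**
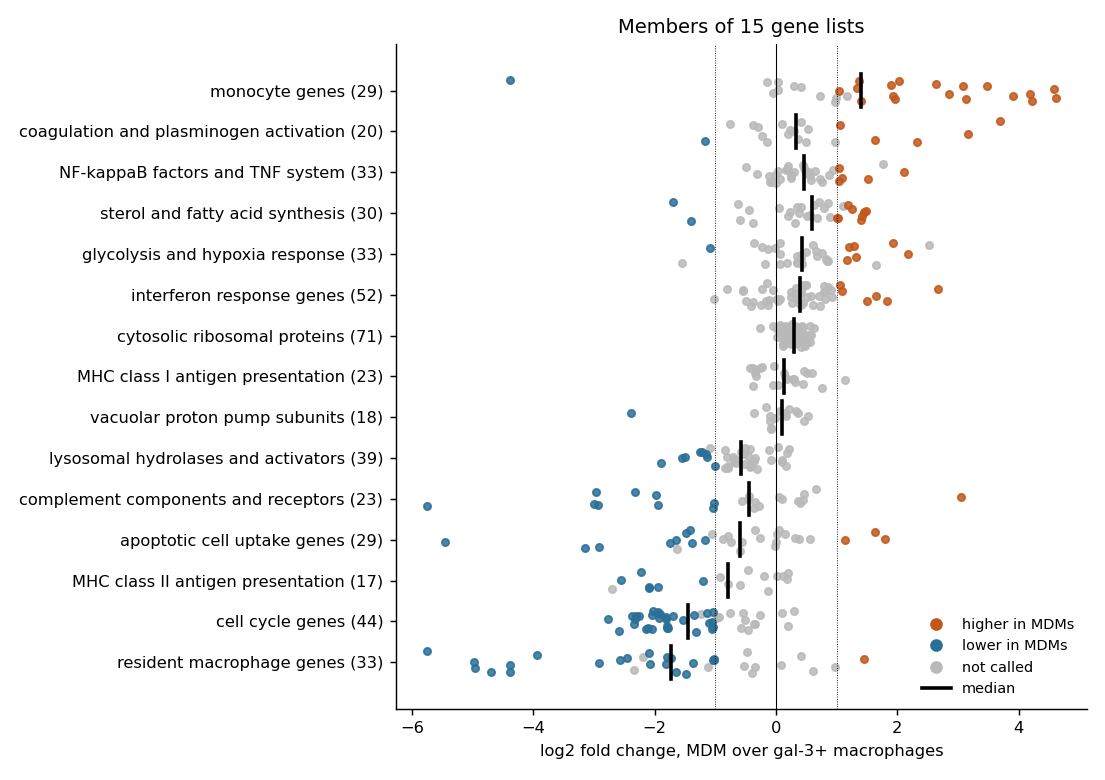
Log2 fold change, MDM over gal-3+ macrophages, of each measured member of 15 gene lists, 1 point per gene with the number of genes in brackets, the list median as a black bar and dotted lines at 2-fold. Orange points were called higher in MDMs, blue points lower and grey points were not called, and the lists run from monocyte genes, median 1.40, to resident macrophage genes, median -1.73.

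Of the MHC class II genes and their regulators 6 of 17 were lower in MDMs. MHC class II molecules present peptides from endosomes to CD4+ T cells, and Ciita encodes the coactivator on which their transcription depends. Ciita, at chr16:10480059-10528418, had 424, 339 and 396 normalized counts in MDMs, against 1681, 2897, 2348 and 2279 in gal-3+ macrophages (log2 fold change -2.55, SE 0.16, limma adjusted p = 1.08e-06). H2-Aa, the I-A alpha chain, had 6788, 3665 and 5499.8 in MDMs, against 20148, 23790.2, 20364 and 24332 in gal-3+ macrophages (log2 fold change -2.1, SE 0.17, limma adjusted p = 5.27e-06). H2-Ab1, its beta chain, had 11751, 7326 and 9831 in MDMs, against 33856, 37302, 32971 and 42119 in gal-3+ macrophages (log2 fold change -1.94, SE 0.14, limma adjusted p = 2.64e-06). These genes fell by similar amounts, as did H2-Eb1, the I-E beta chain, with 5660.4, 3551 and 4562 in MDMs, against 19498, 22562, 18627 and 23957 in gal-3+ macrophages (log2 fold change -2.22, SE 0.14, limma adjusted p = 1.09e-06). Within the MDM group the lowest level of all 4 was that of mdx4. H2-DMb1, a chain of the peptide exchange factor H2-DM, had 1149, 931 and 1119 in MDMs, against 2133, 2534, 2569 and 2629.6 in gal-3+ macrophages (log2 fold change -1.21, SE 0.10, limma adjusted p = 8.16e-06). With Cd74 these were the only ones called in the list, with a list median of -0.80. Dendritic cells also carry MHC class II, and their markers, given above, held both directions, with 8 above 0 and 6 below. Their sum, mostly Wdfy4, was higher in MDMs, while Fscn1 was called lower and Zbtb46 was lower without overlap. The part of dendritic cells in these 6 genes was not tested.

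The members not called included the partner chain H2-DMa at -0.59, the maturation marker Cd83 at -0.92 and the protease Ctss, which trims the invariant chain, at -0.80. The DNA-binding subunits that recruit CIITA overlapped between the groups, with log2 fold changes of 0.12 ± 0.15 for Rfx5, 0.02 ± 0.12 for Rfxap and -0.13 ± 0.27 for Rfxank (SE). Ifi30, a lysosomal thiol reductase that opens antigens, had 0.18 ± 0.07. H2-DMb2, a near copy of H2-DMb1 with which reads can be shared, had 128, 98.2 and 65.8 in MDMs, against 58.3, 98.7, 116 and 65.3 in gal-3+ macrophages, and overlapped. H2-Eb2, H2-Oa and H2-Ob each stayed at or under 56.9 normalized counts. Of 23 MHC class I genes 0 were called by limma, edgeR or DESeq2 at these thresholds, with a median of 0.14, and 10 were above 0 and 7 below 0 at an unadjusted limma p under 0.05. The most abundant was the class I heavy chain H2-D1, at -0.43.

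The class II promoters are shown because CIITA acts on them through a shared module, in which the X box binds the RFX subunits and the Y box binds NF-Y. RefSeq promoter sequence (GRCm38.p6, 250 bases before to 50 after each start) was held for 3 of the 6 lower members and 9 of the 11 not called. The capitals mark TGATTGG as the Y box and AACNGATG as the X box, each searched on both strands. The 130 bases printed end at the base before the annotated start for H2-Aa (minus strand, chr17:34287824-34287953), H2-Eb1 (plus strand, chr17:34305737-34305866), H2-DMb1 (plus strand, chr17:34153061-34153190) and H2-DMb2 (plus strand, chr17:34145119-34145248).
H2-Aa: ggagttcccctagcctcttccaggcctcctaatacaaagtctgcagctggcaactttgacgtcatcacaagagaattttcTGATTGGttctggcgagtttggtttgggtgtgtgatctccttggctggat
H2-Eb1: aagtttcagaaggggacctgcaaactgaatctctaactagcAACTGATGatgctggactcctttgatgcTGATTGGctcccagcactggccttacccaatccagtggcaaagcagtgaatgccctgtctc
H2-DMb1: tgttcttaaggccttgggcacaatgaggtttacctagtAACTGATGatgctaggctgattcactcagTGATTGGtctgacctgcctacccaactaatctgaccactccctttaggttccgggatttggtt
H2-DMb2: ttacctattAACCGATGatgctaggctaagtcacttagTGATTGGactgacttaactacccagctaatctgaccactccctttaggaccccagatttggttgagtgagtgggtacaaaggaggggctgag
The Y box letters stood in the windows of all 3 lower members and of 5 of the 9 others, against 8.38% of all 27025 genes with a promoter. The X box letters stood in 2 of the 3 and 3 of the 9, against 2.27% of all genes, and both together in 45 genes (0.167%). H2-DMb2 carries both, as H2-DMb1 does, although only H2-DMb1 was called. A match of letters is a description of the window and not a binding site.

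**Figure D5:**
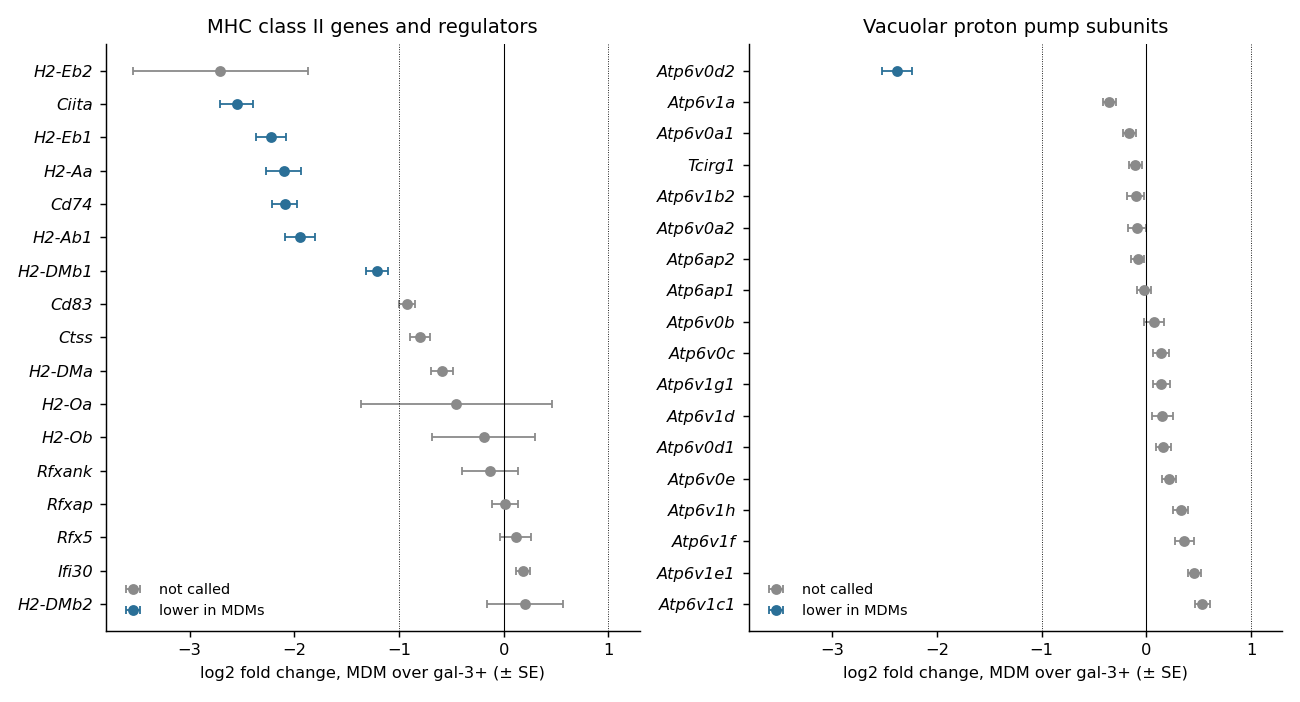
Log2 fold change, MDM over gal-3+ macrophages, with its SE for the MHC class II genes and regulators (left) and the vacuolar proton pump subunits (right), blue where called lower in MDMs and grey where not called, with dotted lines at 2-fold. Of the 2 sets, 6 of 17 class II members and 1 of 18 pump subunits, Atp6v0d2, were called lower.

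Complement genes held both directions. C3, at chr17:57203970-57228136, encodes the central component on which all routes converge, and had 12583, 17200.4 and 16654 normalized counts in MDMs, against 1858, 1524, 1943 and 2094 in gal-3+ macrophages (log2 fold change 3.06, SE 0.13, limma adjusted p = 5.32e-08). The 3 chains of C1q, encoded side by side on chromosome 4, went the other way. C1qa had 4155, 3434 and 3663 in MDMs, against 26093, 29214, 30198 and 31955 in gal-3+ macrophages (log2 fold change -2.97, SE 0.09, limma adjusted p = 8.71e-09). C1qb had 8696, 7469.8 and 7949 in MDMs, against 36752, 38311, 42800.4 and 42871 in gal-3+ macrophages, and C1qc had 3996, 3350.3 and 3787 against 26527, 27071, 29828 and 29197. Their log2 fold changes were -2.32 ± 0.08 and -2.93 ± 0.08 (SE). The gal-3+ levels of C1q were near the SkMRM means of 35315 ± 371, 35137 ± 389 and 36858 ± 634 (SD, n = 3 each) and the MDM levels were the lowest of the 3 populations. In all, 9 of 23 genes were lower and 1, C3, was higher, with a median of -0.44.

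Of 29 genes for the uptake of dying cells 9 were lower in MDMs, 3 higher and 17 not called, with a median of -0.59. Mfge8, a bridge between phosphatidylserine and integrins, had 397, 453 and 498 in MDMs, against 3747, 4077, 4629.7 and 3501 in gal-3+ macrophages (log2 fold change -3.15, SE 0.11, limma adjusted p = 2.22e-08). Gas6, the bridging ligand of the MERTK and AXL receptors, had 674, 521 and 665 in MDMs, against 4828, 3861, 5425 and 4719 in gal-3+ macrophages (log2 fold change -2.92, SE 0.12, limma adjusted p = 6.52e-08). The receptors stayed short of the 2-fold limit, with a log2 fold change of -0.78 for Mertk and -0.88 for Axl. The 3 higher genes were Cd300lf, Thbs1 and Abca7. Cd300lf, an inhibitory phosphatidylserine receptor, had 7196, 6679 and 8115 in MDMs, against 2959.8, 1752, 2014 and 1881 in gal-3+ macrophages (log2 fold change 1.79, SE 0.15, limma adjusted p = 8.58e-06). Thbs1, which encodes the matricellular protein thrombospondin-1, had 417707, 500540.0 and 537000.0 in MDMs, against 176084, 173580.0, 125771 and 153805 in gal-3+ macrophages, and through its abundance the summed level of the list was 1.54-fold higher in MDMs although its median was below 0.

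Lipid genes divided within 1 gene cluster. Apoe, at chr7:19696109-19699188, had 160618, 140062 and 155281 normalized counts in MDMs, against 560947, 644173, 711845 and 751880.0 in gal-3+ macrophages (log2 fold change -2.13, SE 0.14, limma adjusted p = 1.26e-06). Its neighbors on the same strand, Apoc1 at chr7:19689481-19692660 and Apoc2 at chr7:19671579-19677941, encode lipoprotein components that act on lipid-processing enzymes, and both were higher in MDMs. Apoc1 had 185, 226 and 142 in MDMs, against 59.1, 60.02, 54.4 and 43.9 in gal-3+ macrophages (log2 fold change 1.73, SE 0.30, limma adjusted p = 0.00102), and Apoc2 had 2773, 2933 and 2899 in MDMs, against 939, 827, 939.9 and 879 in gal-3+ macrophages (log2 fold change 1.68, SE 0.08, limma adjusted p = 1.76e-07). The cluster thus held both directions, each without overlap. SkMRMs averaged 212860.0 ± 22289 for Apoe, 9.75 ± 8.001 for Apoc1 and 15.8 ± 9.63 for Apoc2 (SD, n = 3 each). Abca1, the cholesterol efflux pump, had 14327, 9628 and 13886 in MDMs, against 37165, 51660.1, 39013 and 40044 in gal-3+ macrophages, and Pltp, the phospholipid transfer protein, had 2218, 1648 and 1495 against 15031, 17907, 19941 and 17986. Both were lower in MDMs, at -1.74 and -3.32. Olr1, the receptor for oxidized LDL, was higher in MDMs, with 5352, 5148 and 6043 against 1832, 1747, 1427 and 1965 in gal-3+ macrophages (log2 fold change 1.67, SE 0.11, limma adjusted p = 1.24e-06). Over lipid uptake, storage and efflux, 6 of 36 were higher, 7 lower and 23 not called, with a median of -0.30. The fatty acid carrier Fabp5 overlapped, with 30925, 35359 and 34984 in MDMs, against 32256, 30317, 30560.1 and 31096 in gal-3+ macrophages.

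Of 30 sterol and fatty acid synthesis genes, 8 were higher in MDMs and 2 lower, with a median of 0.60. Cyp51, the lanosterol demethylase, had 1316, 1974 and 2062 in MDMs, against 558, 647, 731 and 631 in gal-3+ macrophages, and Sqle, the squalene epoxidase, had 515, 744 and 832 against 315, 199, 288 and 233. Both rose by similar amounts, with log2 fold changes of 1.45 ± 0.16 and 1.42 ± 0.21 (SE). MDM mdx1 was the lowest of the 3 MDM libraries in each. The 2 lower genes were the desaturases Fads1, with 564, 448 and 414 in MDMs against 1542, 1368, 1601 and 1633 in gal-3+ macrophages (log2 fold change -1.7, SE 0.12, limma adjusted p = 2.44e-06), and Scd1, with 115, 135 and 107 against 336, 319, 309 and 293 (log2 fold change -1.4, SE 0.18, limma adjusted p = 0.000158).

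The lipid-associated macrophage program, defined elsewhere around Trem2, was lower in MDMs only in part. Of 36 genes, 11 were lower, 2 were higher (Olr1 and Msr1) and 23 were not called, with a median of -0.29. Msr1, a scavenger receptor, sat at the fold threshold and lost the call without gal-3+ mdx3 (0.96), gal-3+ mdx4 (1.0), MDM mdx4 (0.99) or MDM mdx5 (0.97). Spp1, which encodes osteopontin and is a leading gene of that program, had 87938, 174549 and 111607 in MDMs, against 127539, 106053, 147767 and 129463 in gal-3+ macrophages, and overlapped (log2 fold change -0.08, SE 0.20, limma adjusted p = 0.77). SkMRMs held 264 ± 96.2 (SD, n = 3). Gpnmb, a lysosomal glycoprotein, had 39142, 48867 and 37996 in MDMs, against 81779, 76263, 90493 and 74000.3 in gal-3+ macrophages, did not overlap and stayed short of 2-fold (log2 fold change -0.95, SE 0.11, limma adjusted p = 5.71e-05), although it was called lower without MDM mdx4 (-1.06). Cd63, a tetraspanin of late endosomes, had 4222, 4312 and 3695 in MDMs, against 10049, 11771, 11402 and 10812 in gal-3+ macrophages (log2 fold change -1.43, SE 0.08, limma adjusted p = 4.33e-07). Itgax, which encodes CD11c, had 1513, 1234 and 949.9 in MDMs, against 4461, 4959, 4669.8 and 4621 in gal-3+ macrophages (log2 fold change -1.95, SE 0.13, limma adjusted p = 1.42e-06). Mmp12, the macrophage elastase, had 1365, 976 and 811 in MDMs, against 4660.1, 5325, 5006 and 4287 in gal-3+ macrophages (log2 fold change -2.23, SE 0.15, limma adjusted p = 1.55e-06).

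Of 39 lysosomal hydrolases and activators, 33 had a log2 fold change below 0 and the 8 called were all lower, with a median of -0.57. Their summed level was 330138 ± 7700.3 in MDMs and 495550.0 ± 30459 in gal-3+ macrophages (SD, n = 3 and 4), a 1.501-fold difference. Glb1, the lysosomal beta-galactosidase, had 876, 639 and 506 in MDMs, against 1805, 1800.5, 2179 and 1683 in gal-3+ macrophages (log2 fold change -1.5, SE 0.16, limma adjusted p = 4.29e-05), and Siae, a sialic acid esterase, had 337, 365 and 338 against 1086, 947, 1087 and 932. Psap, the precursor of the saposins and the most abundant member, did not overlap but was not called, at -0.57. Of 16 cathepsins and cystatins 3 were lower. Ctsl, a cysteine protease, had 17099.9, 18652 and 21234 in MDMs, against 38676, 40413, 42352 and 41274 in gal-3+ macrophages (log2 fold change -1.1, SE 0.08, limma adjusted p = 3.21e-06), and the low-abundance Ctsf had 36.4, 43.4 and 48.1 against 248, 344, 297 and 215. Ctsb sat at the fold threshold, with 157310.0, 156134 and 163481 in MDMs, against 311192, 298937, 344737 and 320528 in gal-3+ macrophages (log2 fold change -1.0, SE 0.10, limma adjusted p = 3.27e-05). It lost the call without gal-3+ mdx4 (-0.96), gal-3+ mdx5 (-1.0), MDM mdx1 (-0.99) or MDM mdx4 (-0.99). Ctsd, the main aspartic protease, was not called at -0.78.

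The vacuolar proton pump, which acidifies lysosomes, did not follow as a whole. Of its 18 measured subunits 1 was called lower (5.56%), beside 6.7% of all genes, and the median was 0.11. It was Atp6v0d2, the d2 subunit known from osteoclasts, with 1669.7, 2189 and 1358 in MDMs, against 8630.5, 9541, 9933 and 7710.3 in gal-3+ macrophages (log2 fold change -2.38, SE 0.14, limma adjusted p = 7.09e-07). Its ubiquitous counterpart Atp6v0d1 had 4347, 4944 and 5246 in MDMs, against 4327, 4312, 4469.7 and 4148 in gal-3+ macrophages, and overlapped. The remaining subunits lay between -0.35 for Atp6v1a and 0.54 for Atp6v1c1. SkMRMs had 375 ± 9.32 for Atp6v0d2 (SD, n = 3), below both dystrophic populations. Among lysosomal membrane proteins and transporters, 3 of 35 were lower (8.57%), near the 6.7% of all genes. Without gal-3+ mdx4 or without MDM mdx5, 1 remained. Lamp1, the main glycoprotein of the lysosomal membrane, was not called at -0.44.

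Atp6v0d2 and Acp5 are both osteoclast genes, and 4 of 17 genes of that list were lower in MDMs, with a median of -0.56. Car4, a carbonic anhydrase, had 18.97, 7.65 and 2.35 in MDMs, against 92.5, 66.7, 89.3 and 149 in gal-3+ macrophages (log2 fold change -3.53, SE 0.62, limma adjusted p = 0.00112). Ocstamp, a membrane protein of osteoclast fusion, had 50.6, 99.5 and 52.8 in MDMs, against 144, 233, 268 and 127 in gal-3+ macrophages (log2 fold change -1.5, SE 0.36, limma adjusted p = 0.00707), and lost the call without any 1 library other than gal-3+ mdx5 or MDM mdx4, at adjusted p from 0.0146 to 0.0377. Several genes on which osteoclast formation depends were not called. Tnfrsf11a, which encodes the receptor RANK, overlapped at -0.11, Dcstamp, needed for cell fusion, overlapped at -0.26, and Nfatc1, the leading transcription factor, was at -0.72. Ctsk, the collagenase of osteoclasts, had 495, 575 and 484 in MDMs, against 698, 615, 567 and 589.9 in gal-3+ macrophages, and overlapped. Tcirg1, the osteoclast pump subunit a3, was not called at -0.10.

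Promoters of Acp5 and Glb1 are shown because MITF and TFE factors, which drive osteoclast and lysosomal genes, recognize the M-box TCACATGA and the E-box CACGTG. Of the 15 lysosome genes lower in MDMs, 11 had RefSeq promoters, of which 4 held the E-box (Ctsf, Ctsl, Glb1 and Sgsh) and 1, Acp5, the M-box. Of the 93 not called, 73 had promoters and 17 of them held the E-box. Over all genes with a promoter the shares were 6.86% for the E-box and 0.984% for the M-box, searched on both strands. The 150 bases printed end before the start, on the minus strand at chr9:22130599-22130748 for 1 of 3 Acp5 starts and on the plus strand at chr9:114400928-114401077 for Glb1, with the M-box and E-box in capitals.
Acp5: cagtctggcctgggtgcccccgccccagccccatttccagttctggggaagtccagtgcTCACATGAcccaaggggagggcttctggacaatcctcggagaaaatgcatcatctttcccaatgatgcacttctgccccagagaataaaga
Glb1: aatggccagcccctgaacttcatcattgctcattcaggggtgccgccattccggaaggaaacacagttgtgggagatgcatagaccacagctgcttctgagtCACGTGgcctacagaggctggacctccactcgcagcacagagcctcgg
The longer CLEAR core TCACGTGA stood in none of the 11 lower and in 7 of the 73 uncalled genes.

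Several C-type lectins and the TREM receptors signal through ITAM adaptors. Of 34 genes of these receptors and adaptors 5 were higher in MDMs, 3 lower and 26 not called. Trem1, an amplifier of inflammation, had 3701, 4700.1 and 5109.9 in MDMs, against 683, 806, 646 and 996 in gal-3+ macrophages (log2 fold change 2.53, SE 0.15, limma adjusted p = 7.95e-07). Its relative Trem3 had 133, 179.9 and 176 in MDMs, against 10.1, 5.33, 2.05 and 1.95 in gal-3+ macrophages (log2 fold change 5.02, SE 0.61, limma adjusted p = 9.36e-05), and SkMRMs held 5.395 ± 4.54 for Trem1 and 0.241 ± 0.417 for Trem3 (SD, n = 3 each). Trem1 and Trem3 were thus opposite in direction to Trem2, described above, although all 3 use the adaptor DAP12. That adaptor, Tyrobp, had 7678, 9148 and 8841 in MDMs, against 7187, 7469, 7883 and 7781 in gal-3+ macrophages, and overlapped. The adaptor Fcer1g, the partner of MINCLE, had 11545, 13198 and 13149 in MDMs, against 12221, 12244, 13623 and 12129.9 in gal-3+ macrophages, and overlapped too. Clec4d, a lectin that pairs with MINCLE, had 5169, 5237 and 6181 in MDMs, against 2007, 2391, 1558 and 2383 in gal-3+ macrophages (log2 fold change 1.42, SE 0.14, limma adjusted p = 2.11e-05). The beta-glucan receptor Clec7a and the mannan receptor Clec4n did not overlap and were not called, at 0.67 and 0.75. The downstream kinase Syk overlapped at 0.12, and Card9 was not called at 0.46. On the lower side were Mgl2, a galactose-binding lectin, with 147, 72.7 and 81.02 in MDMs against 317, 299, 330.4 and 402 in gal-3+ macrophages, and the mannose receptor Mrc1, with 21758, 16269 and 20733 against 38572, 44384, 36459 and 37900.1. Mrc1 lay at the fold threshold (log2 fold change -1.01, SE 0.11, limma adjusted p = 3.51e-05) and lost the call without gal-3+ mdx3 (-0.95) or MDM mdx4 (-0.88).

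Of 23 interleukin-1 system and inflammasome genes 4 were higher in MDMs, 1 lower and 18 not called. Il1b, the main secreted interleukin-1, had 50987, 61001 and 75091 in MDMs, against 24521, 24279.7, 24639.6 and 31252 in gal-3+ macrophages (log2 fold change 1.24, SE 0.13, limma adjusted p = 3.49e-05), and SkMRMs held 183 ± 136 (SD, n = 3). Il1r2, its decoy receptor, had 583, 512 and 611 in MDMs, against 156, 104, 118 and 205 in gal-3+ macrophages (log2 fold change 2.0, SE 0.23, limma adjusted p = 7.25e-05). Mefv, which encodes the inflammasome sensor pyrin, had 5994, 5571 and 6918 in MDMs, against 1888, 2115, 1771 and 2107 in gal-3+ macrophages (log2 fold change 1.64, SE 0.09, limma adjusted p = 5.39e-07). Agonist, decoy and sensor thus all rose, while the antagonist Il1rn overlapped, with 16025, 24540.1 and 25786 in MDMs, against 21289, 18307, 20795 and 23579 in gal-3+ macrophages. Il1rap, a receptor chain and the fourth higher gene, lost the call without gal-3+ mdx3 (1.0), and the lower gene was the interleukin-18 inhibitor Il18bp, at -1.5. Ptgs2, the inducible cyclooxygenase, had 31050.3, 36849 and 46909.9 in MDMs, against 15851, 15287, 15798 and 19341 in gal-3+ macrophages (log2 fold change 1.19, SE 0.13, limma adjusted p = 4.21e-05). MDM mdx5 had the highest Il1b and Ptgs2 of the 3 MDM libraries and gal-3+ mdx5 the highest of the 4 gal-3+ libraries.

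Further along the prostaglandin and leukotriene list the direction turned. There 7 of 22 were lower and 2, Ptgs2 and Ptges, were higher, with a median of -0.32. Ptges, the prostaglandin E synthase, had a limma adjusted p of 0.00489 and lost the call without any 1 library other than gal-3+ mdx5, at adjusted p from 0.0111 to 0.0309. Hpgd, which inactivates prostaglandins, had 31.6, 28.1 and 35.2 in MDMs, against 196, 216, 268 and 226 in gal-3+ macrophages (log2 fold change -2.8, SE 0.27, limma adjusted p = 2.12e-05). Hpgds, the hematopoietic prostaglandin D synthase, had 1882, 1406 and 1166 in MDMs, against 4249, 3396, 4142 and 3716 in gal-3+ macrophages (log2 fold change -1.41, SE 0.14, limma adjusted p = 2.74e-05), and Ltc4s, the leukotriene C4 synthase, had 63.2, 53.6 and 37.6 against 193, 119, 208 and 213. These 3 genes had higher means in SkMRMs than in either dystrophic population, at 3614 ± 332, 5389 ± 473 and 1424 ± 93.7 (SD, n = 3 each). Alox5ap, which feeds 5-lipoxygenase, did not overlap and was not called at 0.52.

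Chemokines held both directions. Of 26, 5 were higher in MDMs (Ccl2, Ccl24, Ccl7, Cxcl3 and Ccl6) and 4 lower (Ccl8, Cxcl12, Cxcl16 and Pf4), though without MDM mdx5 Ccl7 (1.0) and Cxcl3 (0.99) lost the call. Ccl2, the main CCR2 ligand, had 17962, 25886 and 28783 in MDMs, against 8968, 6604, 7867 and 9540.4 in gal-3+ macrophages (log2 fold change 1.54, SE 0.16, limma adjusted p = 3.12e-05), and Ccr2 itself had 21304, 22424 and 20292 against 8524, 7575, 9085 and 8819 (log2 fold change 1.33, SE 0.08, limma adjusted p = 5.39e-07). Ligand and receptor were therefore higher in the same population. Cxcl16, a membrane-bound chemokine and scavenger of oxidized lipid, had 3006, 2525 and 3185 in MDMs, against 9829, 12346, 11613 and 12639 in gal-3+ macrophages (log2 fold change -2.0, SE 0.10, limma adjusted p = 2.93e-07). Cxcl12, a stromal chemokine, had 300.4, 256 and 265 in MDMs, against 1283, 1658, 958 and 1479 in gal-3+ macrophages, and moved with the lower endothelial and pericyte markers, whose part was not tested. The neutrophil attractants Cxcl1 and Cxcl2, the most abundant of the list, were not called at -0.35 and 0.53.

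Of 30 chemoattractant receptors 5 were higher and 6 lower in MDMs. The formyl peptide receptors, which detect bacterial and mitochondrial peptides, were both higher. Fpr2 had 469.6, 583 and 564 in MDMs, against 52.1, 34.7, 80.04 and 72.1 in gal-3+ macrophages (log2 fold change 3.21, SE 0.30, limma adjusted p = 1.54e-05), and Fpr1 had 286, 307 and 345 against 36.5, 73.4, 25.7 and 47.8 (log2 fold change 2.84, SE 0.36, limma adjusted p = 0.000118). Ltb4r1, the leukotriene B4 receptor, had 383, 461 and 476 in MDMs, against 141, 42.7, 70.8 and 92.6 in gal-3+ macrophages. Cx3cr1, the fractalkine receptor, was lower, with 3901, 4645 and 3591 in MDMs, against 8917, 7117, 11083 and 9799.7 in gal-3+ macrophages (log2 fold change -1.18, SE 0.14, limma adjusted p = 6.53e-05). Of 24 adhesion genes, the higher ones included Itgb7, a beta chain of gut-homing integrins, with 2655, 3571 and 3362 against 781, 809.5, 945 and 793 in gal-3+ macrophages. The lower ones were Itga9, a tenascin- and VCAM-1-binding integrin, with 816, 481 and 639.9 in MDMs, against 4150.0, 5431, 4147 and 5276 in gal-3+ macrophages (log2 fold change -2.9, SE 0.16, limma adjusted p = 5.01e-07), Itgax and Pecam1.

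NF-kappaB and TNF genes were higher in 5 of 33 cases, with a median of 0.46. Traf1, an adaptor of TNF receptors, had 2011, 2568 and 2984 in MDMs, against 505, 563, 561 and 689 in gal-3+ macrophages (log2 fold change 2.11, SE 0.14, limma adjusted p = 1.69e-06). Tnfsf14, the cytokine LIGHT, had 1274, 1661 and 1457 in MDMs, against 405, 559, 439 and 678 in gal-3+ macrophages (log2 fold change 1.51, SE 0.17, limma adjusted p = 5.88e-05). The feedback inhibitors, the most abundant of the list, had log2 fold changes of -0.09 for Tnfaip3 and 0.47 for Nfkbia, neither called. Interferon response genes were higher in 6 of 52 cases, with a median of 0.39, and 3 remained without MDM mdx5. That library held the highest Slfn4, a myeloid Schlafen gene, which had 3899, 4146 and 7256 in MDMs, against 875, 855, 669 and 708 in gal-3+ macrophages (log2 fold change 2.66, SE 0.19, limma adjusted p = 2.46e-06). Slfn1 had 1806, 2325 and 2135 in MDMs, against 666, 543, 522 and 608 in gal-3+ macrophages, and the DNA-sensing family member Ifi205 had 3059, 3204 and 3815 against 1193, 986, 862 and 1262. All 4 of the higher genes with a RefSeq promoter and 23 of 35 genes not called held AAANNGAAA, the core of the interferon-stimulated response element. The search covered both strands, and 10.8% of all genes with a promoter held these letters.

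Of 33 glycolysis and hypoxia genes 6 were higher in MDMs, 1 was lower and 26 were not called, with a median of 0.43. Slc16a3, the lactate exporter MCT4, had 3882, 4523 and 5556 in MDMs, against 929, 978, 918 and 1272 in gal-3+ macrophages (log2 fold change 2.18, SE 0.14, limma adjusted p = 1.13e-06). Slc2a1, the glucose importer GLUT1, had 4139, 4996 and 6493 in MDMs, against 2151, 1878, 1865 and 2299 in gal-3+ macrophages (log2 fold change 1.33, SE 0.14, limma adjusted p = 2.94e-05). Hif1a, the oxygen-regulated transcription factor, had 18823, 19862 and 23856 in MDMs, against 8204, 9368, 7288 and 9294 in gal-3+ macrophages (log2 fold change 1.29, SE 0.11, limma adjusted p = 6.32e-06). Of the enzymes between import and export, the most abundant did not reach 2-fold, with Pkm at 0.76 and Gapdh at 0.41. The lower gene was the muscle phosphofructokinase Pfkm, with 199, 229.6 and 123 in MDMs, against 355, 369, 418 and 377 in gal-3+ macrophages (log2 fold change -1.09, SE 0.22, limma adjusted p = 0.00238), which moved with the lower muscle markers, whose part was not tested. Pfkm lost the call without gal-3+ mdx4 (adjusted p = 0.0107), gal-3+ mdx5 (0.0104) or MDM mdx5 (log2 fold change -0.82). Of 52 nuclear genes of oxidative phosphorylation and 71 cytosolic ribosomal protein genes 0 were called by limma, edgeR or DESeq2, with medians of 0.26 and 0.30. These medians lay above that of all genes, and at an unadjusted limma p under 0.05 30 of the oxidative phosphorylation genes and 51 of the ribosomal protein genes were above 0, against 1 and 1 below 0.

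Among arginine, alternative activation and inducible enzymes, 6 of 23 were higher in MDMs and 2, the lectins Mgl2 and Mrc1 described above, were lower. Arg1, the arginase of alternatively activated macrophages, had 7793, 6611 and 7429 in MDMs, against 3193, 2245, 2113 and 3506 in gal-3+ macrophages (log2 fold change 1.43, SE 0.16, limma adjusted p = 5.51e-05). Its mitochondrial form Arg2 had 988, 831 and 1088 in MDMs, against 194, 223, 159 and 313 in gal-3+ macrophages (log2 fold change 2.15, SE 0.21, limma adjusted p = 2.2e-05). Ass1, which recycles citrulline into arginine, had 1262, 1576 and 1578 in MDMs, against 295, 239, 215 and 224 in gal-3+ macrophages (log2 fold change 2.59, SE 0.15, limma adjusted p = 4.73e-07). The enzymes that use arginine and the one that restores it were higher together. Chil3, a chitinase-like protein, had 17505, 28922 and 15767 in MDMs, against 2484, 1875, 3213 and 2055 in gal-3+ macrophages, with MDM mdx4 the highest. Slc7a11, the cystine importer, had 5213, 4506 and 5467 in MDMs, against 995, 1546, 842 and 1079 in gal-3+ macrophages (log2 fold change 2.21, SE 0.17, limma adjusted p = 3.71e-06). Gsr, the glutathione reductase, was higher as well, with 4014, 5381 and 4827 in MDMs, against 946, 956, 784 and 1186 in gal-3+ macrophages (log2 fold change 2.3, SE 0.14, limma adjusted p = 7.09e-07). Sod2, the mitochondrial superoxide dismutase, had 7917, 8443 and 8604 in MDMs, against 3736, 2970.1, 3528 and 3455 in gal-3+ macrophages. Of 28 NADPH oxidase, antioxidant and granule genes, Gsr, Sod2 and Lcn2 were higher, and Gpx3, the secreted glutathione peroxidase, and the lysozyme Lyz1 were lower, at -1.61 and -1.01. Lyz1, a near copy of Lyz2, lost the call without gal-3+ mdx3 (-0.99), gal-3+ mdx4 (-0.91) or MDM mdx5 (-0.82). The oxidase subunit Cybb was not called at -0.17.

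Iron handling genes held both directions. Hp, which encodes haptoglobin, had 3736, 5217 and 4652 in MDMs, against 309, 271, 261 and 362 in gal-3+ macrophages (log2 fold change 3.91, SE 0.14, limma adjusted p = 2.53e-08), and Lcn2, the siderophore-binding lipocalin, had 155, 283 and 234 against 6.997, 17.3, 28.7 and 12.7 (log2 fold change 3.8, SE 0.50, limma adjusted p = 0.00016). Slc40a1, the iron exporter ferroportin, had 31.6, 38.3 and 50.5 in MDMs, against 388, 445, 432 and 481 in gal-3+ macrophages (log2 fold change -3.43, SE 0.23, limma adjusted p = 1.69e-06) and a SkMRM mean of 4379 ± 478. With the haptoglobin receptor Cd163 also lower, 2 of 24 genes were higher and 5 lower. The ferritin chains Fth1 and Ftl1 were not called, at 0.37 and -0.26.

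Matrix genes held both directions. Of 35 matrix and fibrosis factors 5 were higher in MDMs (Vcan, Inhba, Fn1, Thbs1 and Emilin2) and 10 lower, with a median of -0.44. Fn1, which encodes fibronectin, had 298350.0, 376939 and 298108 normalized counts in MDMs, against 109766, 91987, 84589 and 102528 in gal-3+ macrophages (log2 fold change 1.74, SE 0.13, limma adjusted p = 2.72e-06). Inhba, the activin A subunit, had 645, 954 and 793 in MDMs, against 151, 70.7, 131 and 163 in gal-3+ macrophages (log2 fold change 2.67, SE 0.28, limma adjusted p = 3.2e-05). The higher members were thus mostly matrix proteins. The lower members were mostly growth factors. Pdgfc had 104, 86.8 and 76.3 in MDMs, against 800.0, 1095, 874 and 867 in gal-3+ macrophages (log2 fold change -3.34, SE 0.17, limma adjusted p = 2.69e-07), and Pdgfb had 196, 107 and 102 against 844, 707, 918 and 898 (log2 fold change -2.69, SE 0.22, limma adjusted p = 6.32e-06). Bmp2, a bone morphogenetic protein, had 28.5, 81.7 and 116 in MDMs, against 344, 501, 462 and 432 in gal-3+ macrophages. The last 2 genes are also expressed by endothelium, whose markers were lower in MDMs, and that part was not tested. Grn, which encodes progranulin, was not called at -0.65.

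Of 39 matrix proteases and inhibitors 4 were higher and 8 lower, and the 4 higher were Serpinb10, Slpi, Serpinb2 and Mmp8. Of these, 3 are inhibitors, among which Serpinb10 and Serpinb2 overlap on the same strand. Mmp8, the neutrophil collagenase, had 1143, 1488 and 1355 in MDMs, against 481, 295, 309.9 and 332 in gal-3+ macrophages (log2 fold change 1.92, SE 0.17, limma adjusted p = 1.18e-05). Mmp13, a collagenase of macrophages and skeletal cells, had the opposite direction, with 168, 101 and 150.3 in MDMs, against 1409, 1228, 1231 and 1105 in gal-3+ macrophages (log2 fold change -3.17, SE 0.18, limma adjusted p = 4.33e-07). Mmp14, a membrane-bound collagenase, did not overlap and was not called at -0.56, and the crosslinking enzyme Tgm2 overlapped at 0.31.

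Coagulation genes were higher in MDMs in 5 of 20 cases, with a median of 0.34. F10, coagulation factor X, had 14975, 19497 and 19414 in MDMs, against 2138, 1632, 1899 and 2381 in gal-3+ macrophages (log2 fold change 3.16, SE 0.13, limma adjusted p = 5.32e-08), and a SkMRM mean of 25.2 ± 20.96. F5, its cofactor in thrombin formation, had 1241, 1295 and 1178 in MDMs, against 90.2, 100.03, 87.2 and 101 in gal-3+ macrophages (log2 fold change 3.7, SE 0.15, limma adjusted p = 5.32e-08). Both partners of the prothrombinase complex were therefore higher without overlap. Serpinb2, the plasminogen activator inhibitor of monocytes, had 800.1, 1542 and 1917 in MDMs, against 223, 263, 221 and 378 in gal-3+ macrophages (log2 fold change 2.33, SE 0.28, limma adjusted p = 8.27e-05). Thbs1 and S100a10, a plasminogen-binding S100 protein, made up the 5. The 1 lower gene was Pros1, the anticoagulant protein S, with 1135, 1042 and 751 in MDMs, against 1971, 2197, 2437 and 2054 in gal-3+ macrophages (log2 fold change -1.17, SE 0.14, limma adjusted p = 6.77e-05), and it lost the call without MDM mdx5 (-0.99). S100 proteins and annexins had 5 of 18 higher. S100a8, a calprotectin chain, had 218, 214 and 154 in MDMs, against 29.5, 34.7, 59.5 and 32.2 in gal-3+ macrophages (log2 fold change 2.34, SE 0.35, limma adjusted p = 0.000417), S100a4 had 1028, 1172 and 1159 against 349, 359, 211 and 271, and Anxa2, the partner of S100A10, was not called at 0.37.

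Cell cycle genes were lower in MDMs in 30 of 44 cases, with a median of -1.44. Nusap1, a spindle protein, had 41.1, 70.2 and 51.7 in MDMs, against 428, 367, 391 and 302 in gal-3+ macrophages (log2 fold change -2.78, SE 0.25, limma adjusted p = 1.11e-05). Ccna2, the cyclin of DNA replication and mitotic entry, had 129.7, 106 and 156 in MDMs, against 639.8, 675, 862 and 554 in gal-3+ macrophages (log2 fold change -2.38, SE 0.19, limma adjusted p = 5.91e-06). Melk, a mitotic kinase, had 53.8, 22.96 and 35.2 in MDMs, against 251, 220.1, 198 and 203 in gal-3+ macrophages, and Ube2c, which drives mitotic exit, had 77.5, 67.6 and 62.2 against 436, 240.1, 463 and 319. No library of one group reached the range of the other for these 4 genes. SkMRMs averaged 683 ± 137 for Nusap1 and 844 ± 166 for Ccna2 (SD, n = 3 each), above the gal-3+ means of 372 ± 52.7 and 683 ± 129.9 (SD, n = 4 each). The abundant replication clamp Pcna was not called at 0.20, nor was the chromatin protein Hmgb2 at 0.30.

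Among Fc and paired receptors 6 of 30 were higher and 2 lower. Klra2, a Ly49 family receptor of myeloid cells, had 1146, 1396 and 1192 in MDMs, against 143, 145, 99.5 and 151 in gal-3+ macrophages (log2 fold change 3.21, SE 0.18, limma adjusted p = 4.33e-07). The lower pair was Fcrls, an Fc receptor-like scavenger of mouse resident macrophages, with 829, 588 and 861 in MDMs, against 9089, 8828, 9663 and 11336 in gal-3+ macrophages (log2 fold change -3.69, SE 0.13, limma adjusted p = 2.22e-08), and Siglec1, the sialic acid receptor CD169, with 4383, 4067 and 4342 against 11171, 9991, 11039 and 9827 (log2 fold change -1.3, SE 0.07, limma adjusted p = 4.04e-07). The MS4A family had 3 of 11 higher and 2 lower. Ms4a4c had 2824, 2949.7 and 3412 in MDMs, against 725, 700.2, 721 and 848 in gal-3+ macrophages (log2 fold change 2.03, SE 0.10, limma adjusted p = 2.12e-07), whereas Ms4a7 had 1678, 1319 and 1597 against 6041, 7506, 6998 and 7772 (log2 fold change -2.21, SE 0.11, limma adjusted p = 1.64e-07) and Ms4a14 had 529.7, 337 and 436 against 2120.1, 2413, 2313 and 2102. The abundant Ms4a4a overlapped at 0.08. Family members thus sorted to different populations.

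Transcription factors were called higher in 6.67% and lower in 2.22% of cases, and cytokine receptors in 0% and 9.38%. The shares of all genes were 2.68% and 6.7%. Of 45 factors 3 were higher in MDMs (Nfe2, Nr4a2 and Hif1a) and 1, Egr1, was lower. Nr4a2, an orphan nuclear receptor of the immediate early class, had 5438, 5784 and 6225 in MDMs, against 2252, 2353, 1696 and 1998 in gal-3+ macrophages (log2 fold change 1.5, SE 0.11, limma adjusted p = 2.59e-06), and Egr1 had 10793, 10721 and 10911 against 24139.9, 25265, 21034 and 21699.5 (log2 fold change -1.09, SE 0.08, limma adjusted p = 2.1e-06). Cebpb and Klf6, the most abundant, were not called at 0.70 and -0.07. Of 32 cytokine receptors 3 were called, all lower (Tgfbr1, Pdgfrb and Kdr). Tgfbr1, the type 1 receptor of TGF-beta, had 5181, 3480.4 and 2938 in MDMs, against 8179.6, 9054, 10703 and 8560.5 in gal-3+ macrophages (log2 fold change -1.27, SE 0.16, limma adjusted p = 0.000129). Pdgfrb and Kdr are receptors of pericytes and endothelium, whose markers moved with them, and both lost the call without single libraries (Kdr without gal-3+ mdx1 at -0.98, MDM mdx1 at -0.96 or MDM mdx4 at -0.90, Pdgfrb without MDM mdx1 at -1.17 or MDM mdx5 at -0.97). Csf1r, the receptor on which macrophages depend, did not overlap and was not called, at -0.65. Genes that respond to tissue dissociation had 1 of 38 higher, Fosl1, and 2 lower, Egr1 and the heat shock protein Hspb1, with a median of -0.24, and the abundant Zfp36 and Fos were not called at -0.46 and -0.77. Hspb1 (log2 fold change -1.24, SE 0.30, limma adjusted p = 0.00705) lost the call without any 1 library other than MDM mdx4, at adjusted p from 0.0108 to 0.0359. Of 27 Toll-like receptor genes, Tlr12 and Tlr3 were lower and Tlr5 was higher. Tlr3 lost the call without MDM mdx1 (-1.19) or MDM mdx4 (-1.14) and Tlr5 without gal-3+ mdx4 (0.90) or MDM mdx5 (0.95), and the lipopolysaccharide coreceptor Cd14 overlapped at 0.25.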

How the data were processed

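RNA-seq was made by the authors from sorted macrophages of hindlimb muscle, with 2 ng of total RNA per library (a SMARTer stranded kit for picogram inputs), paired-end reads, TopHat2 2.0.14 alignment to mm10, HTSeq 1.99.2 counting against GENCODE M9 and DESeq2 1.28.1. How strand was set in counting is not given in the sources used here. The deposited values are counts per gene divided by the authors' size factors, a normalized signal. All of them were whole reads within 0.001 once multiplied back (100% in each library), which gave the depths. The deposited tables also hold the authors' own base means, log2 fold changes, standard errors, test statistics, p-values and adjusted p-values, and these were not used.

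All 17001 genes held at least 10 normalized counts in at least 3 of the 10 libraries. Groups followed the population names of the columns. Log2(normalized count + 1) was fitted in limma 3.58.1 (R 4.3.3, trended empirical Bayes) on the 7 mdx libraries, MDM against gal-3+, without pairing, with p-values adjusted by Benjamini-Hochberg over all genes. A gene was called at an adjusted p under 0.01 where the fold was 2 or more, as in the study. With 3 and 4 libraries, residual degrees of freedom were 5. Since whole reads were recovered, edgeR 4.0.16 and DESeq2 1.42.0 were run on them as alternatives, and edgeR called 486 genes higher and 1328 lower. The other alternatives were pseudocounts of 0.5 and 5, minimums of 10 and 50 normalized counts in 3 of the 7 libraries, all 10 libraries in the fit, a replicate block, TMM and upper quartile scaling, no variance trend, other thresholds and each library left out in turn. On simulated reads, limma called 46 of 67 genes changed by a log2 fold of 1.5, 62 of 67 at 2 and 63 of 66 at 3. It also called 4 of 16780 unchanged genes. A gene that is not called can therefore still differ.

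The members, the 41 gene lists, the gate genes and the marker lists of other cells were chosen with earlier results of these data known, as were the motifs. Genes named are the 5 markers, the gate genes, the 12 largest and 12 smallest called log2 fold changes among non-overlapping genes with a mean of at least 100 normalized counts and a symbol other than a date or a Gm or Rik number, and, from each list, up to 4 called members with the largest change, 2 abundant members not called and up to 2 members of the opposite direction. The MHC class II, proton pump, C-type lectin and osteoclast-like lists could be given in full. Arg1, Axl, Camp, Ccl2, Ccr2, Cx3cr1, Flt3, Fn1, Ltf, Mertk, Xcr1 and Zbtb46, and genes given only to spell out a count, were chosen after their values were seen. A few genes that fall under the naming rule above are left out of the text. In 22 rows the gene symbol had been turned into a date, and these rows were fitted but are not named. Gene positions are from GENCODE M21 and promoters from RefSeq, both on GRCm38.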

Additional observations from a re-analysis of the deposited data

Results flagged for a closer look

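Among the 4 gal-3+ libraries, 1 library stood far from the other 3 in 14 of the 239 genes named, measured as its gap to the nearest library over the whole range of the group, past Dixon's 95% limit for 4 samples. Chance alone flags about 1 in 20 such groups, and groups of 3, as the MDMs, were not tested. Library mdx5 was the highest for Il1b (ratio 0.948, 31252 normalized counts, against 24280 to 24640 in the others), for Ptgs2 (0.861), for the lactate exporter Slc16a3 (0.833) and for Ms4a4c (0.835), all of them genes that were higher in MDMs than in every gal-3+ library. Library mdx4 was the highest for the adaptor Fcer1g (0.923) and for the granule gene Camp (1.000, with the others at 0) and the lowest for Klra2 (0.844) and the peptidase Dpp4 (0.884). Library mdx3, which also stood apart in the second principal component, was the highest for Erdr1 (0.868), for the tenocyte factor Mkx (0.926) and for Twist2 (1.000, with the others at 0), and the lowest for Gapdh (0.836). Library mdx1 was the lowest for Ms4a4a (0.831) and for Gpx3 (0.895). Without gal-3+ mdx5 each of Il1b, Ptgs2, Slc16a3 and Ms4a4c stayed called higher in MDMs.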

How the results depend on the processing

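Of the 20 alternatives, those on the filter, pseudocount, scaling, sample set and variance trend, edgeR and DESeq2 gave 372 to 603 genes higher and 876 to 1451 lower, against 455 and 1139 as reported, and lower genes outnumbered higher genes in each. An adjusted p under 0.05 at the same fold gave 808 higher and 1619 lower, and an adjusted p under 0.01 with no fold minimum gave 1944 higher and 2061 lower, so the lead of lower over higher genes belongs mostly to those past 2-fold. Leaving out 1 library gave 312 to 514 higher and 898 to 1020 lower. Over all genes, the residuals of same-numbered MDM and gal-3+ libraries were close to uncorrelated (-0.0279, 0.0102 and 0.0253). Single genes did move together, such as Slc15a2 and Erdr1, which were lowest in mdx4 of both populations. These correlations cannot decide whether same-numbered libraries share a mouse, and the labels do not say that they do. The replicate block on these numbers gave 398 higher and 870 lower, of which 339 and 843 were among the genes reported. edgeR shared 405 higher and 1111 lower with the reported genes, and DESeq2 433 and 1132. The median of all genes stayed between -0.01 and 0.03 over the settings, so no scaling moved it by 0.1. Of the 162 called genes named, 144 kept the call in every alternative and 18 lost it in at least 1. Of the 77 named genes not called, 4 were called in at least 1 alternative (Cd44, F13a1, Gm26870 and Gpnmb) and 17 changed sign. Arg1 had an adjusted p of 0.0114 with all 10 libraries in the fit. Low counts limit the precision of genes under about 100 normalized counts, and a gene at 0 in 1 group was bounded at 3 reads in the shallowest MDM library, 4.74 normalized counts.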

Other observations

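Purinergic receptors known from resident macrophages of the brain were lower in MDMs. P2ry12, the ADP receptor of microglia and platelets, had 349, 341 and 276 normalized counts in MDMs, against 874, 846, 1019.9 and 887 in gal-3+ macrophages (log2 fold change -1.49, SE 0.13, limma adjusted p = 8.09e-06). P2ry14, which binds UDP-sugars, had 114, 52.3 and 78.7 in MDMs, against 295, 360.1, 266 and 294 in gal-3+ macrophages (log2 fold change -1.94, SE 0.27, limma adjusted p = 0.000246). No library of one group reached the range of the other for either gene. Igf1, a growth factor for muscle, had 2704, 1764 and 1667 in MDMs, against 8641, 8501, 8747 and 8218 in gal-3+ macrophages (log2 fold change -2.09, SE 0.14, limma adjusted p = 1.40e-06), and a SkMRM mean of 11447 ± 393 (SD, n = 3). Sepp1, which encodes the selenium carrier selenoprotein P, had 28443, 21538 and 21149 in MDMs, against 104748, 139022, 148673 and 125514 in gal-3+ macrophages (log2 fold change -2.45, SE 0.14, limma adjusted p = 4.33e-07). These 4 genes were chosen after their values were seen.

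The next 3 genes, also chosen after their values were seen, varied widely between libraries of 1 population. Slc15a2, a peptide transporter, had 417, 22.96 and 352 in MDMs, against 296, 163, 4.104 and 253 in gal-3+ macrophages, and was lowest in the mdx4 library of both populations. Erdr1 had 342, 6.38 and 250.1 in MDMs, against 93.3, 464, 36.9 and 61.4 in gal-3+ macrophages, and was likewise lowest in mdx4 of both. The gene model Gm26870 had 8179, 47.2 and 30.5 in MDMs, against 16.3, 61.3, 53.4 and 213 in gal-3+ macrophages, with the high value in MDM mdx1 alone. It was not called by limma, but edgeR on the recovered reads gave it a log2 fold change of 4.98 (adjusted p = 4.29e-04).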
